A study of Mus musculus with 15 samples.

Results

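Mouse myotubes that expressed PGC-1a3 were compared with control myotubes that expressed GFP alone: the 3 arrays titled PGC-1a3 against the 3 arrays titled GFP, 6 of the 15 arrays of the series, over all 23332 transcript clusters. Primary mouse myoblasts, the precursor cells of skeletal muscle, were grown to near confluence and switched to a low-serum medium in which they fuse into multinucleate myotubes. Adenovirus was added after 48 h of differentiation (multiplicity of infection 100), fresh medium followed 12 h later, and cells were harvested for RNA about 60 h after transduction. The GFP group received a virus for GFP only, and the PGC-1a3 group a virus for GFP and PGC-1a3 from separate promoters, so that both groups express GFP and both met adenovirus. The other isoform groups, PGC-1a1, PGC-1a2 and PGC-1a4, were made in the same way with 3 arrays each and serve here for direct comparison. The labels give no mouse strain, age or sex, and nothing in them says that replicates came from different cultures. The p-values therefore measure only the spread between these samples, which may be technical.

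PGC-1a, encoded by Ppargc1a, is a transcriptional coactivator: it binds no DNA itself but is recruited by factors such as nuclear receptors, and it is best known in muscle as an inducer of mitochondrial genes. Alternative promoters and splicing give several isoforms. PGC-1a1 is the long form linked to oxidative metabolism, PGC-1a4 is a short form linked to muscle growth, and the targets of PGC-1a2 and PGC-1a3 are less well described. The myotube itself is a post-mitotic cell that makes the sarcomere and the calcium release apparatus that triggers contraction. It also makes the dystrophin complex, which links the contractile apparatus to the matrix across the membrane.

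Each value is the authors' log2 signal of a transcript cluster, a set of exon array probes for 1 gene or locus. Array medians lay between 5.476 and 5.659 log2. GFP replicate 2 stood apart: it was correlated across clusters at 0.982 and 0.983 with the other GFP arrays, which reached 0.991 with each other, and limma's array weighting gave it 0.254, the lowest of the 15 weights. Across clusters the median SD of the 3 arrays was 0.176 log2 for GFP and 0.137 for PGC-1a3. Marker genes of several cell types were read on each array, and levels of different probe sets are not compared with each other. The mean signal of 12 skeletal muscle markers was 10.98 to 11.05 log2 on the GFP arrays and 10.77 to 10.78 on the PGC-1a3 arrays, with 12.55 ± 0.05 in GFP and 12.54 ± 0.02 in PGC-1a3 (SD, n = 3) for Acta1, the skeletal actin gene. All 12 muscle markers had a lower mean in PGC-1a3, with a median difference of -0.17 log2. Of them 3 were lower at an adjusted p under 0.05 (limma), 25% against 2.97% of all clusters, and 0 higher. With median centring 2 were lower. The mean of 11 fibroblast markers was 4.60 to 5.07 and 4.51 to 4.81, that of 12 endothelial markers 4.57 to 4.91 and 4.58 to 4.82, and that of 11 macrophage markers 4.21 to 4.51 and 4.22 to 4.45. With 3 arrays per group, their number limits the precision of every comparison.

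Ppargc1a, the introduced gene, was read first. Its signal was 8.88, 8.12 and 8.58 log2 on GFP replicates 1 to 3 and 9.15, 8.80 and 8.88 on PGC-1a3 replicates 1 to 3. GFP replicate 1 lay at the level of the PGC-1a3 arrays, so the groups overlapped. The difference was 0.42 ± 0.16 log2 (SE, n = 3 per group) and did not pass the test (adjusted p = 0.14). In the direct tests Ppargc1a was lower in PGC-1a3 than in PGC-1a1, with a difference of -3.66 ± 0.16 (adjusted p = 2.2e-07), and lower than in PGC-1a4, at -1.52 ± 0.16 (adjusted p = 2.2e-05). The cluster pools probes along the whole gene, of which an isoform can lack some, so that this signal does not give the dose of PGC-1a3.

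Across all clusters, 1865 differed between PGC-1a3 and GFP at an adjusted p under 0.05 (limma, Benjamini-Hochberg), 7.99% of those tested. Of these, 1171 were higher in PGC-1a3 (5.02% of all clusters) and 694 lower (2.97%), and the median difference of all clusters was -0.02 log2. Most differences were small: 30 clusters rose and 21 fell by 2-fold or more. Genes that copy DNA and splicing regulators were among those that rose, and genes of the sarcomere, the calcium release apparatus, the dystrophin complex and the matrix among those that fell.

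The calls rest on a spread shared by all 5 groups. Fitted on these 6 arrays alone, with 3 per group, 36 clusters passed, 14 higher and 22 lower, and of the 164 genes named in this comparison 17 still did: Abra, Atp13a4, Casq1, Clic5, Csrp3, Gpnmb, Mcm3, Mcm4, Mcm5, Mcm6, Mrgprf, Musk, Pln, Tnc, Tnfsf9, Unc45b and Vldlr. Single arrays moved the count too. Without PGC-1a3 replicate 1, 865 clusters passed, without PGC-1a3 replicate 2, 928, and without GFP replicate 3, 1129. Without GFP replicate 2 the total was 1512, with 763 higher and 749 lower, a nearly even split. In these fits and in the other alternatives run on single genes, none of the 164 genes changed direction, with 159 of them measured under the filter at percentile 50. That had little room to come out otherwise. The genes were taken because they were called on these arrays, and several alternatives leave the difference itself unchanged.

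**Figure D1:**
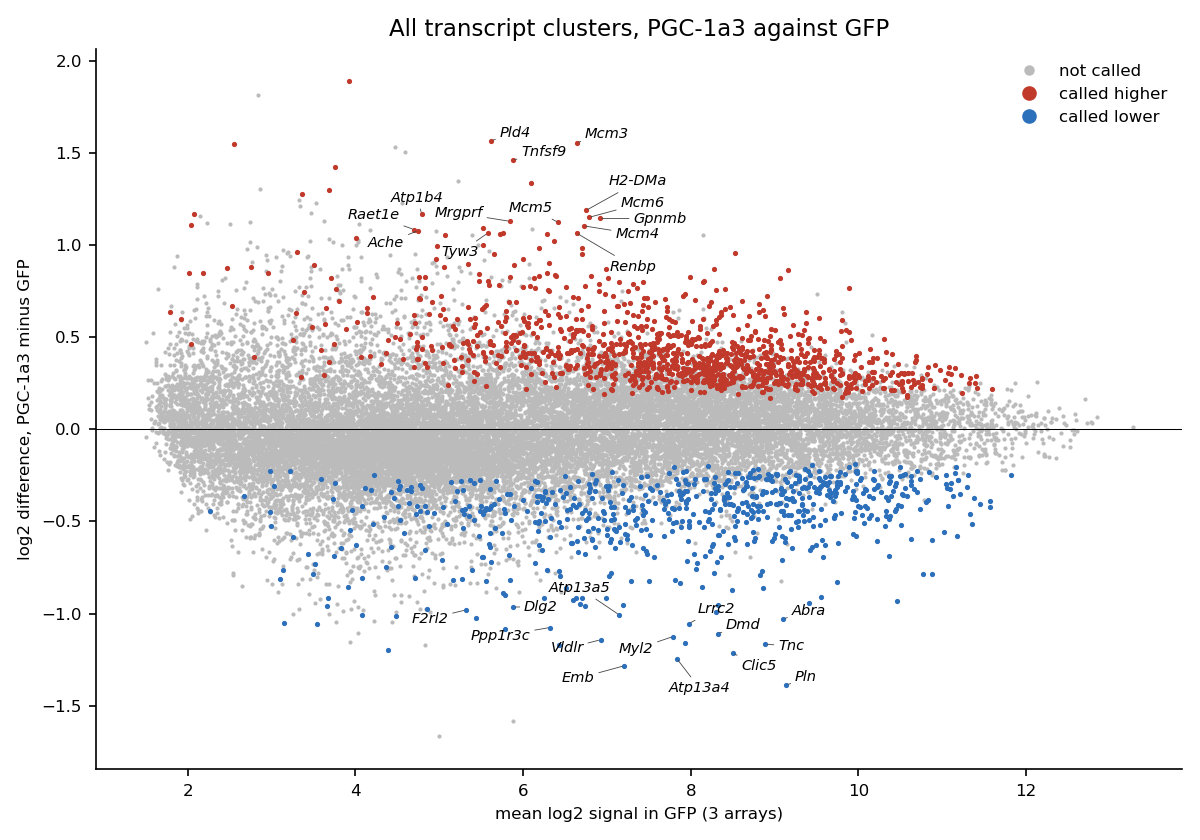
Log2 difference between PGC-1a3 and GFP (y axis, 3 arrays per group) against the mean log2 signal in GFP (x axis) for all 23332 transcript clusters, with called clusters in red (higher) and blue (lower). Named are the 14 largest rises and 14 largest falls among called genes with separate groups, from Pld4 at 1.57 to Pln at -1.39. Called points without a name are smaller changes, overlapping groups, or loci without a usable gene symbol.

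The genes that rose most as a group encode the MCM helicase, the ring that is loaded on DNA before S phase and unwinds it at the replication fork. Of 10 measured MCM genes 7 rose and 0 fell, a share of 70.0% against the 5.02% of all clusters called higher, with a median of 0.69 log2 and a range of 0.01 to 1.56. Mcm3 gave 6.75, 6.50 and 6.66 log2 on the GFP arrays and 8.26, 8.27 and 8.06 on the PGC-1a3 arrays. The groups were far apart, with the lowest PGC-1a3 array more than 1 log2 unit above the highest GFP array. The rise was 1.56 ± 0.10 log2 (SE, n = 3 per group; 2.94-fold, adjusted p = 3.1e-05). Mcm6 read 6.85, 6.62 and 6.89 in GFP and 8.06, 7.95 and 7.80 in PGC-1a3, a rise of 1.15 ± 0.12 (adjusted p = 0.0003). Mcm5 read 6.55, 6.20 and 6.51 in GFP and 7.60, 7.56 and 7.47 in PGC-1a3, a rise of 1.12 ± 0.10 (adjusted p = 0.00013). In both genes GFP replicate 2 was the lowest array. That no PGC-1a3 array overlapped a GFP array in Mcm3, Mcm5 and Mcm6 was a condition of their place among the largest rises. Mcm4 read 6.87, 6.63 and 6.67 in GFP and 7.82, 7.95 and 7.72 in PGC-1a3, a rise of 1.10 ± 0.11 (adjusted p = 0.00024), and Mcm2 read 8.30, 8.15 and 8.27 in GFP and 8.95, 8.96 and 8.88 in PGC-1a3, a rise of 0.69 ± 0.06 (adjusted p = 0.00017). Mcm7 rose by 0.69 ± 0.13 (adjusted p = 0.0066), so that all 6 genes of the helicase ring passed.

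The other MCM family genes, which have roles outside the ring, differed less. Mcmbp, whose product binds MCM proteins, rose by 0.34 ± 0.08 (adjusted p = 0.028), a call lost without any 1 of the 3 PGC-1a3 arrays, without GFP replicate 2 or 3 and with 2 other settings. Mcm9 and Mcm8, which act in DNA repair, differed by 0.24 ± 0.09 and 0.08 ± 0.14, and Mcm10, an initiation factor, by 0.01 ± 0.08. These last 3 did not pass (adjusted p from 0.16 to 0.96). Without GFP replicate 2 the MCM count was 6 of 10 and the median 0.60.

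**Figure D2:**
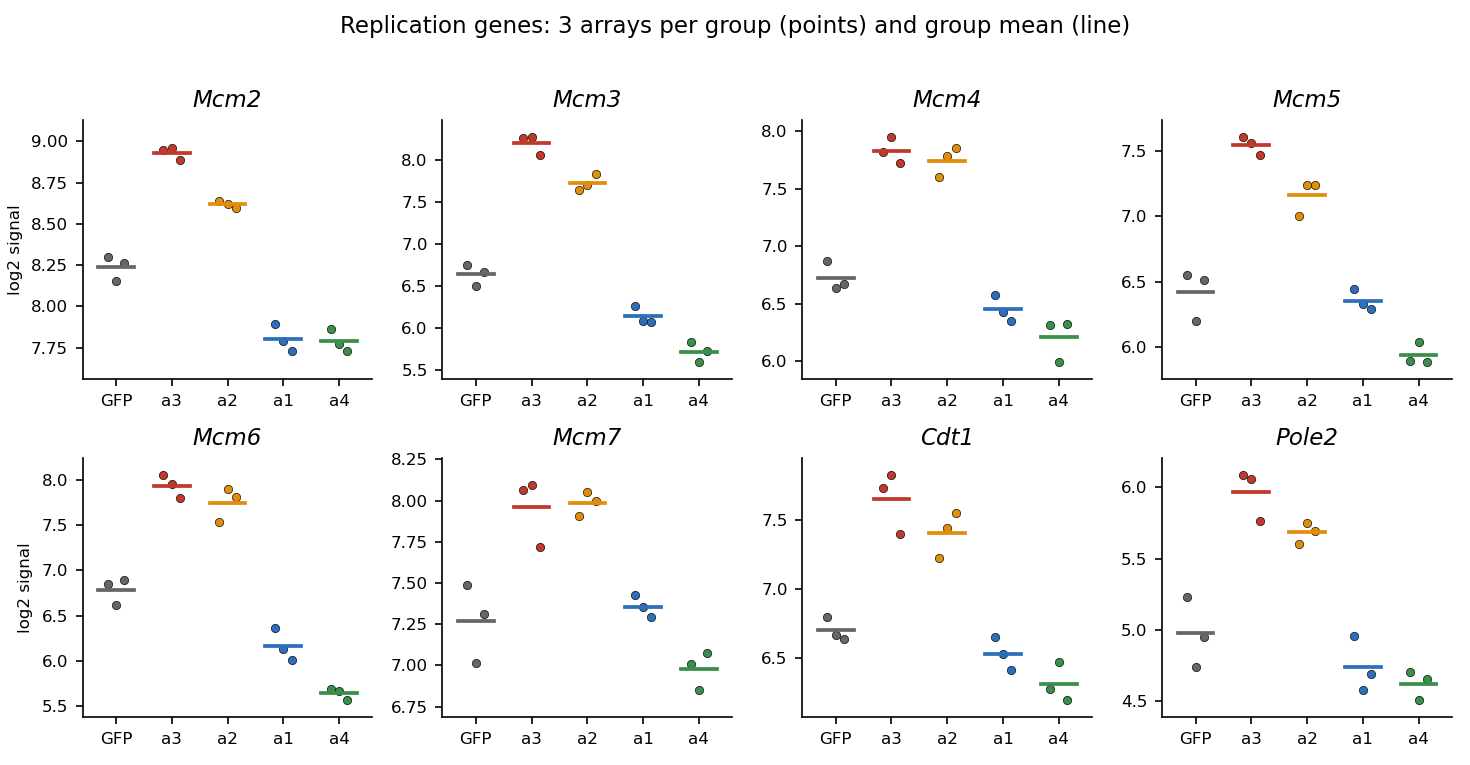
Log2 signal (y axis) of 8 replication genes on each array (points) and the group mean (line) in GFP, PGC-1a3 (a3), PGC-1a2 (a2), PGC-1a1 (a1) and PGC-1a4 (a4), 3 arrays per group. In each panel the 3 PGC-1a3 arrays lie above the 3 GFP arrays, and PGC-1a4 has the lowest mean.

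Beyond the helicase, 16 of 44 measured genes for DNA replication and nucleotide synthesis rose and 0 fell, with a median of 0.25 log2. The share that rose was 36.4%, against the 5.02% of all clusters. Cdt1, the licensing factor that loads the helicase, gave 6.80, 6.66 and 6.64 in GFP and 7.73, 7.82 and 7.39 in PGC-1a3, and rose by 0.95 ± 0.12 (adjusted p = 0.0012). Pole2, a subunit of DNA polymerase epsilon, gave 5.23, 4.74 and 4.95 in GFP and 6.09, 6.06 and 5.77 in PGC-1a3, and rose by 1.00 ± 0.13 (adjusted p = 0.0014). The groups did not overlap in either gene, and in both PGC-1a3 replicate 3 was the lowest of its group. Pold3, a subunit of polymerase delta, rose by 0.71 ± 0.12 (adjusted p = 0.0038), Pola1, the catalytic subunit of polymerase alpha, by 0.58 ± 0.10 (adjusted p = 0.0058), and Ccne1, the cyclin that drives entry into S phase, by 0.55 ± 0.08 (adjusted p = 0.0027). E2f1, which encodes a transcription factor of S-phase genes, rose by 0.39 ± 0.08 (adjusted p = 0.0094). Without PGC-1a3 replicate 1 the count of replication genes was 8 and without PGC-1a3 replicate 2 it was 9.

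Few genes of mitosis were called. Of 42 measured mitosis and spindle genes 3 rose and 2 fell, 7.14% and 4.76%, near the 5.02% and 2.97% of all clusters, and the median was -0.03 log2. Ect2, a regulator of cytokinesis, rose by 0.77 ± 0.15 (adjusted p = 0.0088), while Cenpa, the centromere histone variant, differed by -0.44 ± 0.09 (adjusted p = 0.013). That call ended when PGC-1a3 replicate 1 (adjusted p = 0.058) or GFP replicate 3 (adjusted p = 0.052) was left out, and with either left out 1 mitosis gene rose and 0 fell. Without PGC-1a3 replicate 3, 1 rose and 1 fell. Mki67, the proliferation marker, read 4.34, 3.39 and 4.54 in GFP and 4.11, 3.78 and 4.14 in PGC-1a3, and the difference of -0.08 ± 0.24 did not pass (adjusted p = 0.89). That signal is near the lower quartile of these arrays, 3.857 to 4.047 log2. Top2a, the topoisomerase of dividing cells, differed by -0.20 ± 0.21 (adjusted p = 0.65). RNA of the whole culture was measured, so fewer cells of a type and less RNA per cell cannot be told apart. Of 10 myoblast and satellite cell markers 0 rose and 1, Notch3, fell (10%, against the 2.97% of all clusters). That call was lost without PGC-1a3 replicate 2 (adjusted p = 0.052) and with median centring (adjusted p = 0.062). Without GFP replicate 2, 2 fell. The mean of the markers was 7.81 to 7.87 log2 on the GFP arrays and 7.73 on each PGC-1a3 array, and Pax7, the satellite cell factor, read 8.06, 8.04 and 7.98 in GFP and 8.01, 7.96 and 7.89 in PGC-1a3. The part of precursor cells in the replication result was not tested beyond these values.

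The promoters of the replication genes that rose were searched for the site of E2F, the transcription factor family that drives many S-phase genes. The windows came from RefSeq (GRCm38.p6) and run from 250 bases before to 50 after the annotated start, and the letters searched were TTTCGCGC, TTTGGCGC and TTTCCCGC on both strands. Of the 23 MCM and replication genes called higher, 21 had a window, 22 windows in all, and 11 windows held a match, against 606 of all 32851 windows (1.84%). Among the 30 sarcomere, calcium and dystrophin complex genes called lower, 22 had a window and 0 of 29 windows held a match. At the 1.84% of all windows, 29 windows would hold few or no matches, so this 0 does not set these genes apart. MCM and replication genes that were not called were not counted, so whether the match goes with the rise was not tested. The CCAAT box stood in 13 of the 22 windows and in 37.4% of all. Other motifs were searched as well. The E-box stood in 11 of the 22 windows and in 72.3% of all, and the antioxidant response element in 2 and in 12.4%. The NRF1 core, the cyclic AMP response element and the heat shock element stood in 1 window each. The ERR, sterol, short cyclic AMP and amino acid response elements stood in 0. A match describes letters only and is not shown to be a bound site. The windows of 6 of the genes with the largest rises are printed because they hold these letters. They are written 5′ to 3′ on the gene's strand, with the matches in capitals (joined where matches overlap, as in Mcm5 and Mcm6).
Mcm3, chr1:20820263-20820562, minus strand: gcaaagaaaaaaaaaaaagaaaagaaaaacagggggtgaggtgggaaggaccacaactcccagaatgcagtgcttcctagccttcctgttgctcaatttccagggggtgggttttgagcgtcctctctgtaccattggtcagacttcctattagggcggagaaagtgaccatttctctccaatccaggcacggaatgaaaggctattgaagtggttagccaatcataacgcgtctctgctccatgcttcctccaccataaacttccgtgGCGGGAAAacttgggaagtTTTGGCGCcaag
Mcm5, chr8:75109259-75109558, plus strand: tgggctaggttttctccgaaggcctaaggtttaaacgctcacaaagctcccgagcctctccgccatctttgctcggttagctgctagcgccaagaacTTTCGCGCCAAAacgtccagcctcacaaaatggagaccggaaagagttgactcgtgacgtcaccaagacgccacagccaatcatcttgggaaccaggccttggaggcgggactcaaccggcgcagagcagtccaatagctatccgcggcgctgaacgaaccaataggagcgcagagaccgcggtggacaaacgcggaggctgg
Mcm6, chr1:128359656-128359955, minus strand: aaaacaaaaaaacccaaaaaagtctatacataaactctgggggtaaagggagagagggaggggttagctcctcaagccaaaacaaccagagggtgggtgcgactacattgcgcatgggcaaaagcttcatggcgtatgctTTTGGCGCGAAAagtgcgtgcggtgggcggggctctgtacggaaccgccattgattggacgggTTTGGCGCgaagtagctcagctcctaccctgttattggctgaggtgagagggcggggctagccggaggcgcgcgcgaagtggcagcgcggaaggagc
Mcm7, chr5:138171834-138172133, minus strand: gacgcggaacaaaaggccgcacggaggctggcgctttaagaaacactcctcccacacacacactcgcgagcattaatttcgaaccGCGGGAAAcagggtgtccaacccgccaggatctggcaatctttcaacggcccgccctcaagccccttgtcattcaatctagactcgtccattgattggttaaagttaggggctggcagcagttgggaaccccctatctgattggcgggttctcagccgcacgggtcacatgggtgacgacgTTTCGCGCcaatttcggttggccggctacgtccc
Cdt1, chr8:122567765-122568064, plus strand: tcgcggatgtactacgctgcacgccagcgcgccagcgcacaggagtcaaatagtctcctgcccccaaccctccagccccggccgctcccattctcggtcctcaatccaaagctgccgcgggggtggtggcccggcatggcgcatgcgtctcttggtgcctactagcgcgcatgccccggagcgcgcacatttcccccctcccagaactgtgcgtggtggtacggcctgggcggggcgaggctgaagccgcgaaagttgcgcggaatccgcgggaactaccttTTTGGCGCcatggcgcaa
Pole2, chr12:69228141-69228440, minus strand: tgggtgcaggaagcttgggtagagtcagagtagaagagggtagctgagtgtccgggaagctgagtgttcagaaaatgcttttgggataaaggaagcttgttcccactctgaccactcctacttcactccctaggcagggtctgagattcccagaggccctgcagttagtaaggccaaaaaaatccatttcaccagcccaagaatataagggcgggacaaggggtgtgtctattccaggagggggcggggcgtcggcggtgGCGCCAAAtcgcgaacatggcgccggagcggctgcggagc
Counted from the annotated start, with negative values before it, the matches begin at -153 and -149 in Mcm5 and from -110 to -47 in Mcm6, at 19 and 38 in Mcm3, at -165 and 16 in Mcm7, at 32 in Cdt1 and at 10 in Pole2. The Mcm2 window held none of these letters.

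Several of the largest single rises belong to genes of immune recognition and of the lysosome. Pld4, an endolysosomal nuclease of the phospholipase D family, gave 5.62, 5.34 and 5.91 on the GFP arrays and 7.36, 7.28 and 6.92 on the PGC-1a3 arrays. Its groups were separate and its rise of 1.57 ± 0.14 log2 (2.96-fold, adjusted p = 0.00013) was the largest among named genes. Tnfsf9, a TNF-family ligand that costimulates T cells, gave 5.98, 5.71 and 5.94 in GFP and 7.35, 7.53 and 7.14 in PGC-1a3, a rise of 1.46 ± 0.20 (adjusted p = 0.0014). H2-DMa, a chaperone subunit for peptide loading of class II molecules, gave 6.73, 6.67 and 6.84 in GFP and 7.97, 8.16 and 7.69 in PGC-1a3, a rise of 1.19 ± 0.12 (adjusted p = 0.00025). In all 3 genes the lowest PGC-1a3 array stood above the highest GFP array, which the choice of the largest rises required. Gpnmb, a membrane glycoprotein of lysosome-rich cells, gave 6.96, 6.77 and 7.01 in GFP and 8.11, 8.10 and 7.97 in PGC-1a3, a rise of 1.14 ± 0.10 (adjusted p = 0.00011). Raet1e, a ligand of a natural killer cell receptor, rose by 1.08 ± 0.23 (adjusted p = 0.013), which did not hold with PGC-1a3 replicate 1 left out (adjusted p = 0.063). The Raet1 genes are near-identical copies, and their probes may not separate them.

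Macrophage markers were set beside these genes. Of 11 measured, 1 rose, Cd68, a lysosomal glycoprotein of macrophages, by 0.59 ± 0.13 (adjusted p = 0.017, lost without PGC-1a3 replicate 2, GFP replicate 2 or GFP replicate 3 at 0.076, 0.053 and 0.061), and 0 fell. The leukocyte antigen gene Ptprc read 3.47, 3.47 and 3.34 in GFP and 3.43, 3.47 and 3.48 in PGC-1a3, and 3 of the 11, Ptprc, Adgre1 and Tyrobp, were below the lower quartile of every one of the 6 arrays. Their part in the rises above was not tested. In the lysosome list 2 of 35 genes rose (5.71%, near the 5.02% of all clusters) and 2 fell, with a median of 0.02 log2. The rises numbered 0 without PGC-1a3 replicate 1, 1 without PGC-1a3 replicate 3 or GFP replicate 2 and 4 without GFP replicate 1.

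Other rises came from genes of varied function. Mrgprf, an orphan G protein-coupled receptor, gave 5.77, 5.93 and 5.82 in GFP and 6.97, 6.98 and 6.96 in PGC-1a3, a rise of 1.13 ± 0.13 (adjusted p = 0.00063) with the 3 PGC-1a3 arrays almost equal. Atp1b4, a muscle protein of the sodium-potassium ATPase beta family, rose by 1.17 ± 0.21 (adjusted p = 0.0055). Renbp, which encodes a sugar epimerase that binds renin, rose by 1.06 ± 0.15 (adjusted p = 0.0017), and Tyw3, an enzyme of transfer RNA modification, by 1.06 ± 0.13 (adjusted p = 0.00096). In none of these 4 genes did a PGC-1a3 array overlap a GFP array, which was a condition of their choice.

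Many genes of the contractile machinery fell. Among genes of sarcomere structure 0 of 19 measured rose and 12 fell, a share of 63.2% against the 2.97% of all clusters called lower, with a median of -0.34 log2. Unc45b, the chaperone that folds muscle myosin, gave 9.78, 9.67 and 9.78 log2 on the GFP arrays and 8.95, 8.96 and 8.83 on the PGC-1a3 arrays. The groups were clearly apart, and the difference was -0.83 ± 0.07 (SE, n = 3 per group, adjusted p = 0.00011). Tmod1, which caps the thin filament, gave 10.92, 10.86 and 10.86 in GFP and 10.29, 10.26 and 10.27 in PGC-1a3, a fall with a log2 difference of -0.60 ± 0.05 (adjusted p = 0.00013). Myom1, a protein of the M-band that links thick filaments, differed by -0.53 ± 0.08 (adjusted p = 0.0025), Nrap, a scaffold of myofibril assembly, by -0.45 ± 0.06 (adjusted p = 0.002), and Cmya5, a muscle anchoring protein that binds dystrobrevin, by -0.83 ± 0.13 (adjusted p = 0.0038). Acta1 differed by -0.01 ± 0.05 (adjusted p = 0.96) and the intermediate filament gene Des by -0.02 ± 0.05 (adjusted p = 0.85), and neither passed. Without PGC-1a3 replicate 1 the sarcomere count was 7.

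Genes that release and store calcium also fell. In the sarcoplasmic reticulum list 0 of 24 measured genes rose and 12 fell (50%, against the 2.97% of all clusters), with a median of -0.28 log2. Pln, phospholamban, the inhibitor of the calcium pump of slow and cardiac muscle, had the largest fall of all named genes. It gave 9.26, 9.00 and 9.17 in GFP and 7.81, 7.87 and 7.57 in PGC-1a3, a difference of -1.39 ± 0.19 (adjusted p = 0.0015). No array of the groups overlapped, which the choice of the largest falls required. Casq1, calsequestrin, which stores calcium inside the reticulum, gave 10.47, 10.42 and 10.50 in GFP and 9.57, 9.55 and 9.47 in PGC-1a3, a difference of -0.93 ± 0.10 (adjusted p = 0.00034). Ryr1, the release channel, gave 10.61, 10.61 and 10.67 in GFP and 10.08, 9.94 and 10.09 in PGC-1a3, and differed by -0.59 ± 0.07 (adjusted p = 0.0008). Cacna1s, the voltage sensor that opens that channel, gave 9.53, 9.42 and 9.51 in GFP and 8.90, 8.88 and 8.81 in PGC-1a3, and differed by -0.63 ± 0.08 (adjusted p = 0.0013). The voltage sensor and the release channel were thus both lower on all 3 PGC-1a3 arrays. Cacna2d1, an auxiliary subunit of the voltage sensor, differed by -0.52 ± 0.09 (adjusted p = 0.0038). With median centring the list count was 7.

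**Figure D3:**
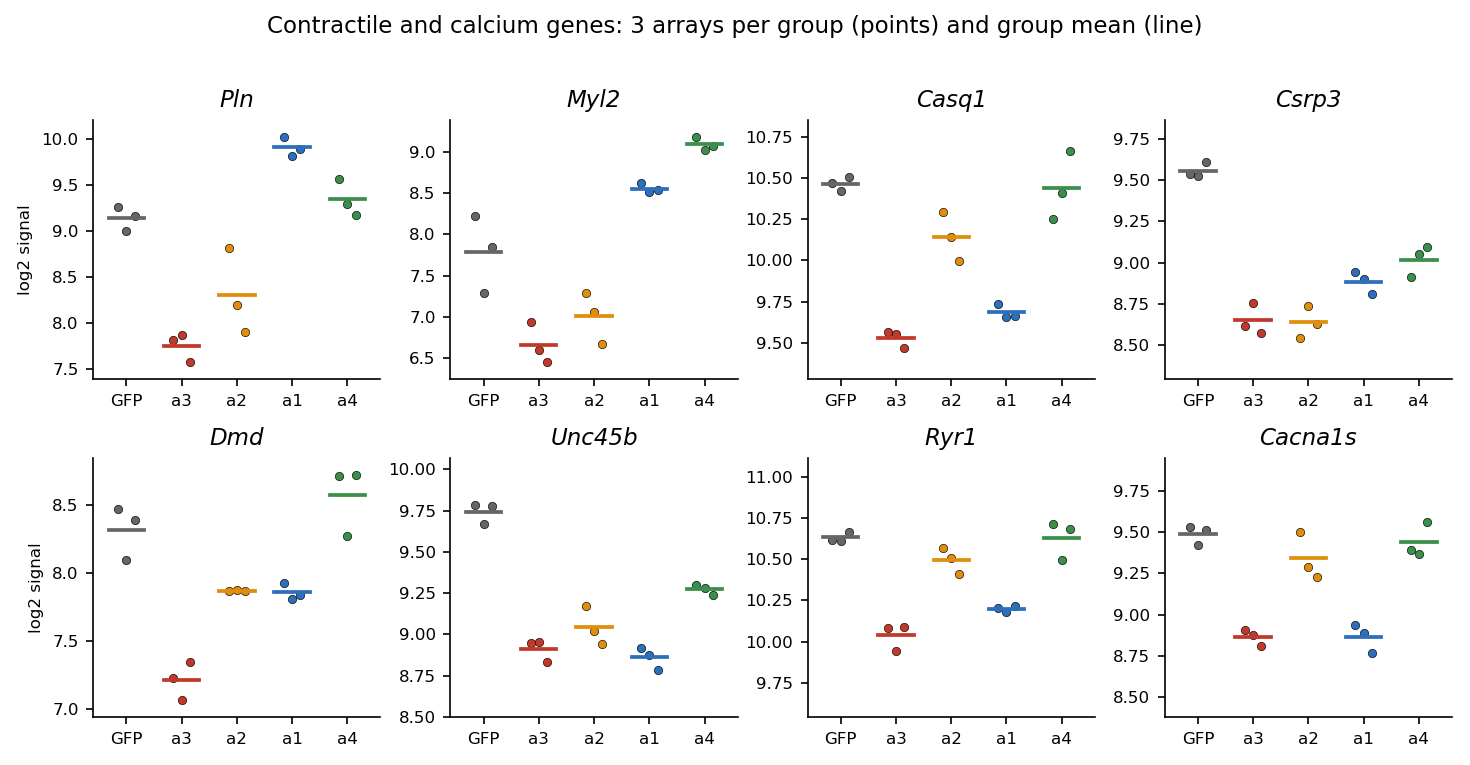
Log2 signal (y axis) of 8 contractile, calcium and membrane genes on each array (points) and the group mean (line) in GFP, PGC-1a3 (a3), PGC-1a2 (a2), PGC-1a1 (a1) and PGC-1a4 (a4), 3 arrays per group. In each panel the 3 PGC-1a3 arrays lie below the 3 GFP arrays. Myl2 and Pln were higher than GFP on average in PGC-1a1 and PGC-1a4, while Unc45b and Csrp3 were below GFP in all 4 isoform groups.

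By fibre type, 5 of 13 measured slow-fibre contractile genes fell and 0 rose (median -0.25 log2, with all 13 below 0), and 2 of 14 fast-fibre genes fell and 0 rose (median -0.12). The falls are 38.5% and 14.3%, against the 2.97% of all clusters. The fast-fibre count was 1 with median centring and without PGC-1a3 replicate 1 or 2 or GFP replicate 1 or 3. Myl2, the slow regulatory myosin light chain, gave 8.22, 7.29 and 7.85 in GFP and 6.94, 6.60 and 6.45 in PGC-1a3, a difference of -1.12 ± 0.21 (adjusted p = 0.0079). GFP spread widely here, with replicate 2 lowest but still above every PGC-1a3 array, which the choice of the largest falls required. Csrp3, the muscle LIM protein of the Z-disc, gave 9.54, 9.52 and 9.61 in GFP and 8.62, 8.76 and 8.58 in PGC-1a3, a difference of -0.91 ± 0.08 (adjusted p = 0.00011). Mybpc1, slow myosin binding protein C, differed by -0.33 ± 0.06 (adjusted p = 0.0069). Pln is on the slow-fibre list and Casq1 on the fast-fibre list as well as on the calcium list. Whether slow and fast genes differed from each other was not tested.

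The dystrophin complex, which ties the contractile apparatus to the matrix across the membrane, had 6 of 14 measured genes lower and 0 higher (median -0.19 log2). The share lower was 42.9%, against the 2.97% of all clusters. The count was 4 with median centring and without PGC-1a3 replicate 2, GFP replicate 1 or GFP replicate 3. Dmd, dystrophin itself, gave 8.47, 8.10 and 8.39 in GFP and 7.23, 7.06 and 7.34 in PGC-1a3. The groups were apart, which the choice of the largest falls required, and the difference was -1.11 ± 0.13 (adjusted p = 0.00057). Sgcd, delta-sarcoglycan, gave 9.30, 9.14 and 9.20 in GFP and 8.60, 8.52 and 8.58 in PGC-1a3, a difference of -0.65 ± 0.06 (adjusted p = 0.00021). Dtna, alpha-dystrobrevin, differed by -0.41 ± 0.06 (adjusted p = 0.003), and Utrn, utrophin, the dystrophin homologue of the neuromuscular junction, by -0.42 ± 0.08 (adjusted p = 0.0081). A cluster pools the exons of a gene, so a change in the isoform of a long gene such as Dmd could also move its value.

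At the neuromuscular junction 6 of 21 measured genes fell and 1 rose (median -0.14 log2). These are 28.6% and 4.76%, against the 2.97% and 5.02% of all clusters. Musk, the receptor kinase that organises the postsynaptic membrane, gave 10.81, 10.73 and 10.79 in GFP and 9.98, 10.04 and 9.96 in PGC-1a3, with tight and separate groups and a difference of -0.78 ± 0.06 (adjusted p = 0.0001). Ache, acetylcholinesterase, was the gene that rose: it gave 4.64, 5.18 and 4.42 in GFP and 5.71, 5.84 and 5.93 in PGC-1a3, a difference of 1.08 ± 0.19 (adjusted p = 0.0052), with GFP replicate 2 the highest control. Erbb2, a receptor kinase for neuregulin, differed by -0.37 ± 0.07 (adjusted p = 0.0094), and Ncam1, the neural cell adhesion molecule, by -0.25 ± 0.05 (adjusted p = 0.008), a call lost with median centring (adjusted p = 0.066), under which 3 of the 21 fell.

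Among 26 myogenic transcription factors and fusion genes 3 fell and 1 rose (median -0.03 log2). These are 11.5% and 3.85%, against the 2.97% and 5.02% of all clusters. With median centring 1 fell and 1 rose. Myf6, the regulator of late differentiation, gave 11.35, 11.31 and 11.36 in GFP and 10.90, 10.92 and 10.81 in PGC-1a3, a difference of -0.46 ± 0.08 (adjusted p = 0.0049). Tcf3, the E protein that pairs with myogenic factors, rose by 0.35 ± 0.06 (adjusted p = 0.0053). Mef2c, a cofactor of the myogenic program, differed by -0.27 ± 0.06 (adjusted p = 0.014, lost without PGC-1a3 replicate 1 and with median centring), and Myog, myogenin, by -0.37 ± 0.09 (adjusted p = 0.032), a call lost without any single array other than PGC-1a3 replicate 1. Myod1 differed by -0.09 ± 0.09 (adjusted p = 0.66) and Myf5 by -0.24 ± 0.07 (adjusted p = 0.062), and neither passed.

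Of 53 measured collagen and matrix genes 15 fell and 1 rose (median -0.17 log2). These are 28.3% and 1.89%, against the 2.97% and 5.02% of all clusters. Tnc, tenascin-C, a matrix protein of tissue remodelling, gave 8.96, 8.78 and 8.92 on the GFP arrays and 7.77, 7.72 and 7.69 on the PGC-1a3 arrays. The groups were separated, which the choice of the largest falls required, and the difference was -1.17 ± 0.15 (adjusted p = 0.00099). Col4a1, a basement membrane collagen, differed by -0.48 ± 0.06 (adjusted p = 0.001), Col6a1, a microfibril collagen of the muscle matrix, by -0.50 ± 0.08 (adjusted p = 0.0038), and Fbln2, fibulin-2, by -0.45 ± 0.08 (adjusted p = 0.0056). Mmp14, a membrane-bound protease that degrades matrix, gave 7.60, 7.43 and 7.69 in GFP and 8.41, 8.26 and 8.13 in PGC-1a3 and was the gene that rose, by 0.69 ± 0.11 (adjusted p = 0.0028). Of 11 fibroblast markers 0 rose and 0 fell. Without PGC-1a3 replicate 1, PGC-1a3 replicate 2 or GFP replicate 3 the count of falls was 7, 6 and 8, and with median centring it was 8.

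The remaining large falls were of membrane proteins and signalling genes. Emb, embigin, a partner of monocarboxylate transporters, gave 7.47, 6.86 and 7.29 in GFP and 6.22, 5.98 and 5.57 in PGC-1a3, a difference of -1.28 ± 0.21 (adjusted p = 0.0042). Clic5, an intracellular chloride channel protein, gave 8.53, 8.43 and 8.55 in GFP and 7.37, 7.36 and 7.14 in PGC-1a3, a difference of -1.22 ± 0.10 (adjusted p = 0.0001). Atp13a4 and its paralogue Atp13a5, cation-transporting ATPases, differed by -1.25 ± 0.12 and -1.01 ± 0.09 (adjusted p = 0.00017 for each). All arrays of these 4 genes were lower in PGC-1a3 than any GFP array, which the choice of the largest falls required. Abra, an actin-binding protein of muscle, gave 9.08, 9.13 and 9.10 in GFP and 8.21, 8.07 and 7.94 in PGC-1a3, a difference of -1.03 ± 0.08 (adjusted p = 0.0001). Lrrc2, a leucine-rich repeat protein, differed by -1.05 ± 0.09 (adjusted p = 0.00011), Ppp1r3c, which targets a phosphatase to glycogen, by -1.08 ± 0.22 (adjusted p = 0.012), and Dlg2, a membrane scaffold, by -0.96 ± 0.12 (adjusted p = 0.00079). F2rl2, a receptor of the protease-activated family, differed by -0.98 ± 0.25 (adjusted p = 0.035), a call lost in 6 alternatives besides the fit on 6 arrays, with adjusted p from 0.057 to 0.14.

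Energy metabolism is the process PGC-1a is best known for. In the respiratory chain 1 of 51 measured genes fell (1.96%, against the 2.97% of all clusters) and 0 rose (median -0.06 log2). The one that fell was Cox6a2, the muscle form of a cytochrome oxidase subunit, which gave 10.71, 10.83 and 10.89 in GFP and 10.36, 10.52 and 10.36 in PGC-1a3, a difference of -0.40 ± 0.08 (adjusted p = 0.0088). In the TCA cycle 2 of 19 fell (10.5%) and 0 rose (median -0.04), with 0 falls without PGC-1a3 replicate 2 or with median centring and 1 without PGC-1a3 replicate 3, GFP replicate 1 or GFP replicate 3. In fatty acid oxidation 5 of 21 fell (23.8%) and 1 rose (4.76%, median -0.17). The count of falls was 1 with median centring and 1 when any single array other than GFP replicate 2 was left out. The gene that rose was Cpt1a, the enzyme that commits fatty acids to mitochondrial entry, with 8.05, 7.83 and 7.95 in GFP, 8.43, 8.47 and 8.39 in PGC-1a3 and a difference of 0.49 ± 0.06 (adjusted p = 0.0013). Esrra, the nuclear receptor through which PGC-1a acts on mitochondrial genes, differed by -0.31 ± 0.08 (adjusted p = 0.033), a call lost in 7 alternatives besides the fit on 6 arrays. Ppargc1b, the paralogue of Ppargc1a, differed by 0.00 ± 0.06 (adjusted p = 0.97).

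In the breakdown of branched-chain amino acids 6 of 24 measured genes fell and 0 rose, with a median of -0.24 log2. The share that fell was 25%, against the 2.97% of all clusters. Pcca, a subunit of propionyl-CoA carboxylase, gave 7.18, 6.78 and 7.32 in GFP and 6.62, 6.42 and 6.32 in PGC-1a3, a difference of -0.64 ± 0.12 (adjusted p = 0.0081). Acat1, the last enzyme of isoleucine breakdown, differed by -0.37 ± 0.06 (adjusted p = 0.0046), and Oxct1, which activates ketone bodies, by -0.37 ± 0.07 (adjusted p = 0.009). In Pcca GFP replicate 2 was the lowest control. Without that array 12 of the 24 genes fell, while the count was 3 with median centring. Pygm, muscle glycogen phosphorylase, gave 11.58, 11.55 and 11.60 in GFP and 11.15, 11.17 and 11.14 in PGC-1a3, a difference of -0.42 ± 0.05 (adjusted p = 0.0012). In its glucose and glycolysis list 2 of 24 fell (8.33%, and 1 without PGC-1a3 replicate 2) and 1 rose (4.17%, against the 5.02% of all clusters).

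In the mitochondrial ribosome, which translates subunits of the respiratory chain, 8 of 50 measured rose and 0 fell, with a median of 0.14 log2. The share that rose was 16%, against the 5.02% of all clusters. Mrpl11, a protein of the large subunit, gave 8.42, 8.36 and 8.43 in GFP and 9.23, 9.19 and 9.07 in PGC-1a3, and rose by 0.76 ± 0.07 (adjusted p = 0.00017), with all PGC-1a3 arrays above all GFP arrays. Mrpl46, also of the large subunit, rose by 0.49 ± 0.09 (adjusted p = 0.0057), and Mrps23, of the small subunit, by 0.31 ± 0.06 (adjusted p = 0.0077). The count was 3 without PGC-1a3 replicate 1 or 2 or GFP replicate 3, 4 without GFP replicate 2 and 5 with median centring, and these 3 genes passed in each of those fits.

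Splicing itself cannot be read from a single value per cluster, but its regulators were measured. Of 43 splicing regulators 11 rose and 1 fell (median 0.18 log2). These are 25.6% and 2.33%, against the 5.02% and 2.97% of all clusters. Celf1, a regulator of muscle splicing transitions, gave 10.04, 9.97 and 10.00 in GFP and 10.40, 10.44 and 10.42 in PGC-1a3, a rise of 0.42 ± 0.05 (adjusted p = 0.00093). Ptbp2, the neural paralogue of the polypyrimidine tract binding protein, rose by 0.54 ± 0.09 (adjusted p = 0.0041), and Mbnl3, the muscleblind form of precursor cells, by 0.59 ± 0.12 (adjusted p = 0.01). Rbfox1, a splicing factor of mature muscle and neurons, was the one that fell, with 9.01, 8.99 and 9.09 in GFP and 8.60, 8.67 and 8.61 in PGC-1a3 and a difference of -0.41 ± 0.08 (adjusted p = 0.0074). The count of rises was 3 without PGC-1a3 replicate 1, PGC-1a3 replicate 2, GFP replicate 2 or GFP replicate 3, and 3 with median centring. Those 3 genes are Celf1, Ptbp2 and Mbnl3.

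**Figure D4:**
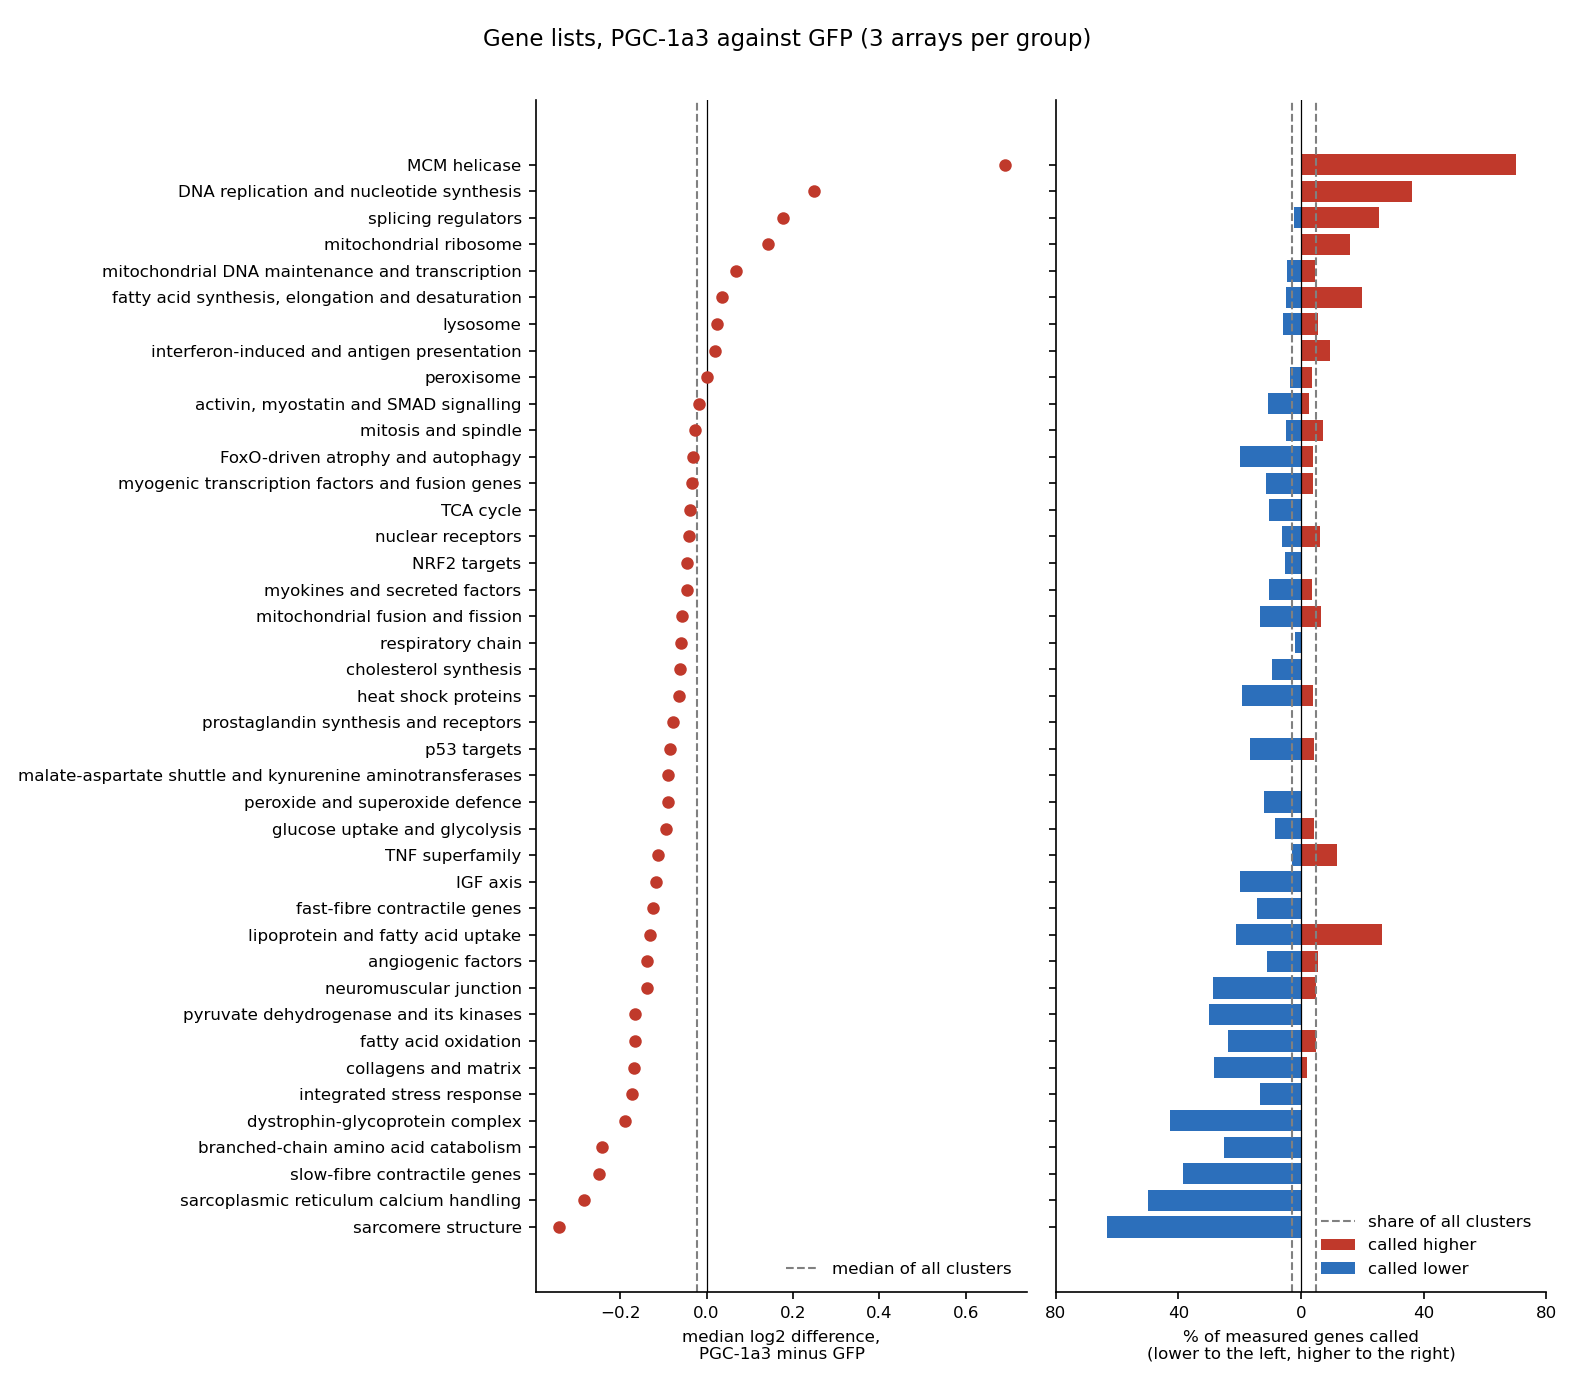
The 41 gene lists in order of their median log2 difference between PGC-1a3 and GFP (left, 1 point per list) and the share of each list's measured genes called lower (blue) or higher (red) in percent (right). Dashed lines mark the values over all clusters, a median of -0.02 log2, 5.02% higher and 2.97% lower. The MCM helicase lies at the top with a median of 0.69 and sarcomere structure at the bottom with -0.34.

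Genes of lipid uptake moved in both directions, 5 of 19 measured higher and 4 lower. These are 26.3% and 21.1%, against the 5.02% and 2.97% of all clusters. Without a single array the counts were 3 to 4 higher and 1 to 3 lower, the fewest falls without PGC-1a3 replicate 2. Vldlr, the receptor of very-low-density lipoproteins, gave 6.97, 6.73 and 7.07 in GFP and 5.86, 5.81 and 5.68 in PGC-1a3, a difference of -1.14 ± 0.13 (adjusted p = 0.00063). Lpl, lipoprotein lipase, gave 4.50, 4.54 and 4.43 in GFP and 5.22, 5.01 and 4.97 in PGC-1a3 and rose by 0.58 ± 0.07 (adjusted p = 0.00093). Pla2g7, a lipoprotein-associated phospholipase, gave 4.17, 4.18 and 4.28 in GFP and 4.96, 4.94 and 4.87 in PGC-1a3 and rose by 0.72 ± 0.10 (adjusted p = 0.0015), and Pltp, phospholipid transfer protein, rose by 0.45 ± 0.08 (adjusted p = 0.0073). The arrays of PGC-1a3 and GFP were separate in each of these genes, which for Vldlr the choice of the largest falls required. In cholesterol synthesis 2 of 21 fell (9.52%, and 1 without GFP replicate 3) and 0 rose, with Hsd17b7, a sterol reductase, at -0.56 ± 0.10 (adjusted p = 0.0072). In fatty acid synthesis 4 of 20 rose (20%) and 1 fell (5%), with 1 rise without PGC-1a3 replicate 1 and 2 without PGC-1a3 replicate 2 or GFP replicate 2. Acacb, the acetyl-CoA carboxylase whose product restrains fatty acid oxidation, was the one that fell, with a difference of -0.44 ± 0.06 (adjusted p = 0.0023), and Elovl4, an elongase of very long fatty acids, rose by 0.43 ± 0.08 (adjusted p = 0.0056).

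Genes of growth control were read next. Mstn, myostatin, the secreted inhibitor of muscle growth, gave 8.25, 8.20 and 8.50 in GFP and 7.74, 7.64 and 7.41 in PGC-1a3. No array overlapped, and the difference was -0.72 ± 0.14 (adjusted p = 0.0099). Bmpr1b, a receptor of bone morphogenetic proteins, differed by -0.78 ± 0.11 (adjusted p = 0.0018), and Ltbp1, which holds latent TGF-beta in the matrix, by -0.48 ± 0.06 (adjusted p = 0.00096), in an activin and SMAD list of which 4 of 37 fell (10.8%) and 1 rose (2.70%). The rise was lost without PGC-1a3 replicate 1, PGC-1a3 replicate 2 or GFP replicate 2 and with median centring. In the IGF axis 4 of 20 fell (20%, against the 2.97% of all clusters) and 0 rose. Grb10 and Grb14, adaptors that restrain insulin receptor signalling, gave 7.06, 6.98 and 7.06 and 8.19, 7.86 and 8.16 in GFP against 6.31, 6.30 and 6.09 and 7.40, 7.41 and 7.23 in PGC-1a3. They differed by -0.80 ± 0.09 (adjusted p = 0.00063) and -0.73 ± 0.11 (adjusted p = 0.0023). The IGF count was 2 without PGC-1a3 replicate 2 or 3 or GFP replicate 1 or 3, and with median centring.

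PGC-1a3 was then compared directly with PGC-1a2, since comparisons of each isoform with GFP share the GFP arrays. In all 2164 clusters differed (9.27%), 1287 higher in PGC-1a3 (5.52%) and 877 lower (3.76%). The total was 1133 without PGC-1a3 replicate 1, 1105 without PGC-1a3 replicate 2, and 1405, 1219 and 1386 without PGC-1a2 replicate 1, 2 or 3. The split was nearly even without PGC-1a3 replicate 1 (572 higher, 561 lower) or PGC-1a3 replicate 2 (560 and 545). It was also nearly even with quantile normalization (1229 and 1237) and with only the 2 groups compared (349 and 344). Without PGC-1a3 replicate 3 it was 1263 and 639. Measured against GFP, Mcm3 differed by 1.56 in PGC-1a3 and 1.09 in PGC-1a2, Mcm6 by 1.15 and 0.96, and Mcm4 by 1.10 and 1.02. In the direct test 3 of the 10 MCM genes were higher in PGC-1a3 than in PGC-1a2: Mcm3 by 0.47 ± 0.10 (adjusted p = 0.0095), Mcm2 by 0.31 ± 0.06 (adjusted p = 0.01) and Mcm5 by 0.39 ± 0.10 (adjusted p = 0.033). Mcm4 and Mcm6 differed by 0.09 ± 0.11 and 0.19 ± 0.12 and did not pass (adjusted p = 0.76 and 0.43).

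In sarcomere structure 7 of 19 genes were lower in PGC-1a3 than in PGC-1a2 (36.8%) and 1 was higher (5.26%). In calcium handling 6 of 24 were lower (25%) and 0 higher. In the dystrophin complex 5 of 14 were lower (35.7%) and 1 was higher (7.14%). Of all clusters 3.76% were lower and 5.52% higher in this comparison. The difference in Casq1 was -0.61 ± 0.10 log2 (adjusted p = 0.003), in Ryr1 -0.46 ± 0.07 (adjusted p = 0.0025), in Dmd -0.66 ± 0.13 (adjusted p = 0.0073) and in Tmod1 -0.44 ± 0.05 (adjusted p = 0.00072). For Unc45b it was -0.13 ± 0.07 (adjusted p = 0.33) and for Csrp3 0.01 ± 0.08 (adjusted p = 0.97), and neither passed. At the neuromuscular junction 9 of 21 genes were lower (42.9%) and 0 higher. In cholesterol synthesis 10 of 21 genes were higher in PGC-1a3 than in PGC-1a2 (47.6%) and 0 lower. In the mitochondrial ribosome 13 of 50 were higher (26%) and 1 lower (2%). Against GFP, the median of the cholesterol list was -0.06 log2 in PGC-1a3 and -0.37 in PGC-1a2. That of the mitochondrial ribosome was 0.14 in PGC-1a3 and -0.09 in PGC-1a2.

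The largest differences between these isoforms were in single genes. Selp, the adhesion molecule P-selectin, gave 4.61, 4.62 and 4.65 on the PGC-1a3 arrays and 6.93, 6.85 and 6.83 on the PGC-1a2 arrays, a difference of -2.24 ± 0.10 log2 (adjusted p = 6.2e-07). Tnfrsf12a, the TWEAK receptor, differed by -1.91 ± 0.12 (adjusted p = 4.9e-06) and Lgr5, a receptor of the Wnt pathway, by -1.71 ± 0.11 (adjusted p = 4.9e-06). Against GFP, these 3 genes differed in PGC-1a3 by 0.03, -0.08 and 0.33, none of which passed. Pla2g7, which rose in PGC-1a3 against GFP, was still lower there than in PGC-1a2, with a difference of -1.89 ± 0.10 (adjusted p = 2.2e-06).

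Mstn went in opposite directions against GFP, with differences of -0.72 in PGC-1a3 and 0.69 in PGC-1a2, both called. It gave 7.74, 7.64 and 7.41 in PGC-1a3 and 9.16, 9.13 and 8.72 in PGC-1a2, and the direct difference was -1.41 ± 0.14 (adjusted p = 0.00023). Ak4, a mitochondrial adenylate kinase, was higher in PGC-1a3 than in PGC-1a2 by 1.60 ± 0.17 (adjusted p = 0.00036). Against GFP, Ak4 differed in PGC-1a3 by 0.16 and did not pass (adjusted p = 0.66). Postn, the matrix protein periostin, was higher in PGC-1a3 than in PGC-1a2 by 1.19 ± 0.12 (adjusted p = 0.00027). Postn nonetheless was lower than GFP in PGC-1a3, with a difference of -0.53 ± 0.12 (adjusted p = 0.022), a call lost without PGC-1a3 replicate 2 or 3 or GFP replicate 1 or 3 and with median centring (adjusted p from 0.065 to 0.072). Ifit1, an interferon-induced gene, Nubpl, an assembly factor of respiratory complex I, and Stard6, a lipid transfer protein, were higher by 1.50 ± 0.37, 1.46 ± 0.35 and 1.15 ± 0.28, and each of these calls ended when any 1 of at least 3 arrays was left out (adjusted p up to 0.1).

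**Figure D5:**
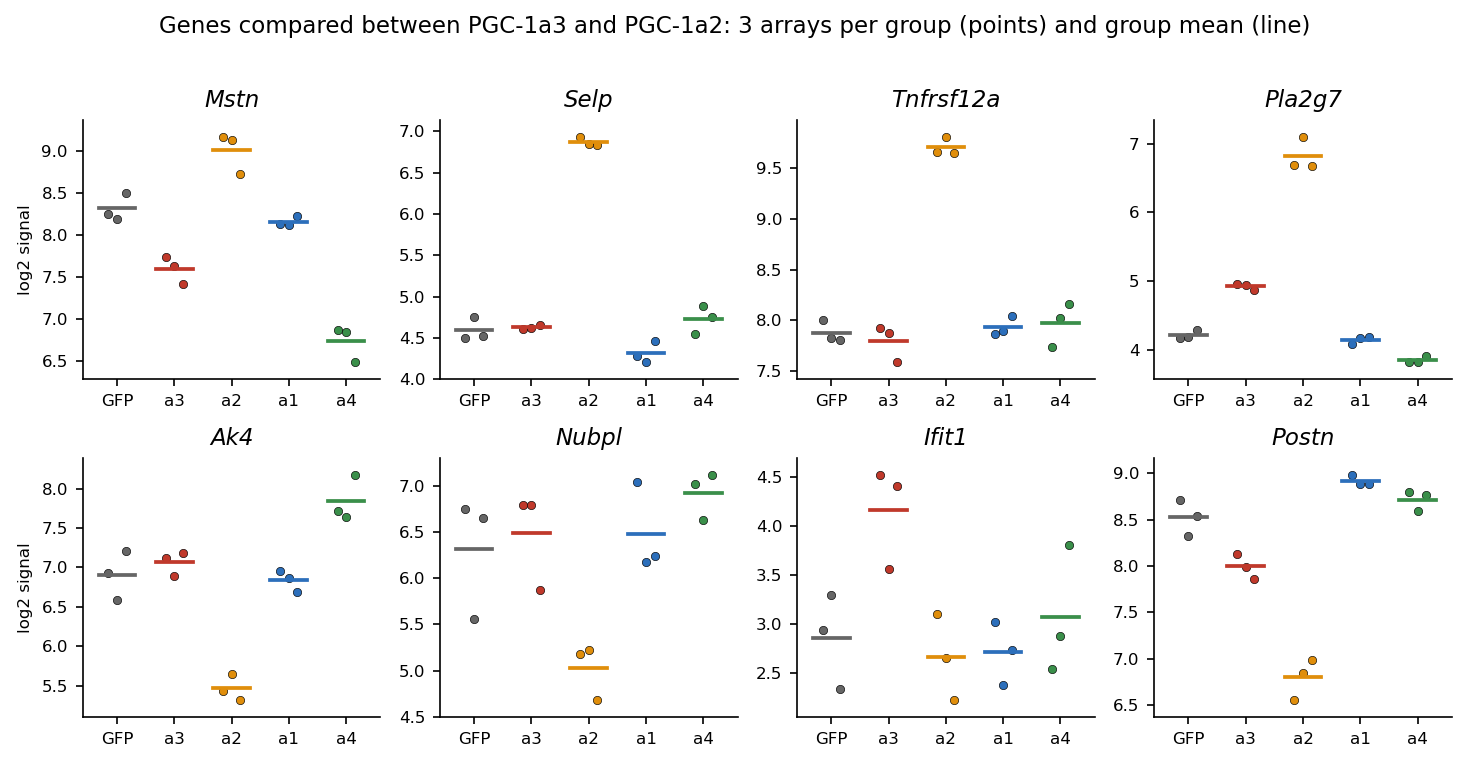
Log2 signal (y axis) of 8 genes on each array (points) and the group mean (line) in GFP, PGC-1a3 (a3), PGC-1a2 (a2), PGC-1a1 (a1) and PGC-1a4 (a4), 3 arrays per group. Selp and Tnfrsf12a were high in PGC-1a2 alone and near GFP in PGC-1a3, and Mstn lay below GFP in PGC-1a3 and above it in PGC-1a2.

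Against PGC-1a1, 3277 clusters differed (14%), 1764 higher in PGC-1a3 (7.56%) and 1513 lower (6.48%). That balance turned with median centring, to 833 higher and 1389 lower, and when PGC-1a3 replicate 1 (1024 and 1157), PGC-1a3 replicate 2 (1128 and 1168), PGC-1a1 replicate 2 (1043 and 1108) or PGC-1a1 replicate 3 (1014 and 1109) was left out. The respiratory chain held 35 of 51 genes lower in PGC-1a3 and 0 higher, and the TCA cycle 18 of 19 lower and 0 higher. Their medians against GFP were -0.06 and -0.04 log2 in PGC-1a3 and 0.34 and 0.47 in PGC-1a1. Of the MCM genes 8 of 10 were higher in PGC-1a3, with Mcm3 higher by 2.06 ± 0.10 (adjusted p = 2.9e-07). Elovl7, a fatty acid elongase, was lower with a difference of -3.21 ± 0.15 (adjusted p = 2.9e-07), Hpdl, a mitochondrial dioxygenase-like protein, with -2.26 ± 0.26 (adjusted p = 0.00014), and Pln with -2.16 ± 0.19 (adjusted p = 2e-05). Tnfsf9 was higher by 2.09 ± 0.20 (adjusted p = 3.3e-05). Sarcomere structure genes were lower in PGC-1a3 than in PGC-1a1 in 6 of 19 cases (31.6%) and higher in 0. Calcium handling genes were lower in 7 of 24 (29.2%) and higher in 2, and dystrophin complex genes lower in 4 of 14 and higher in 1. Slow-fibre genes were lower in 6 of 13 and higher in 0, while fast-fibre genes were lower in 1 of 14 and higher in 4. Single genes could still be level. Cacna1s and Unc45b differed between PGC-1a3 and PGC-1a1 by 0.00 ± 0.08 and 0.05 ± 0.07 and did not pass (adjusted p = 1 and 0.74).

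Against PGC-1a4, 5365 clusters differed (23.0%), 3080 higher in PGC-1a3 (13.2%) and 2285 lower (9.79%). Of DNA replication genes 34 of 44 were higher in PGC-1a3 and 0 lower, and of the antioxidant targets of NRF2 13 of 19 were higher and 0 lower. Nqo1, an NRF2 target that reduces quinones, was higher in PGC-1a3 than in PGC-1a4 by 2.93 ± 0.20 (adjusted p = 1e-06), and its difference between PGC-1a3 and GFP was -0.12 ± 0.20 (adjusted p = 0.79). Collagen and matrix genes were lower in 28 of 53 cases and higher in 3, and calcium handling genes lower in 16 of 24 and higher in 2. Myl2 was lower in PGC-1a3 with a difference of -2.42 ± 0.21 (adjusted p = 6.5e-06), Pdk4, a kinase that restrains pyruvate oxidation, with -2.24 ± 0.13 (adjusted p = 4.1e-07), and Map2k6, an upstream kinase of p38 signalling, with -2.23 ± 0.12 (adjusted p = 3.3e-07). Mcm3 was higher by 2.48 ± 0.10 (adjusted p = 6.5e-08). Mstn, lower than GFP in both isoforms, was higher in PGC-1a3 than in PGC-1a4 by 0.86 ± 0.14 (adjusted p = 0.00067). The 3 direct comparisons share the PGC-1a3 arrays, so they are not independent of each other.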

How the data were processed

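RNA of each culture was amplified, labelled and read on mouse exon arrays, per the labels' protocols. The deposited values are the authors' log2 signals per transcript cluster, used as deposited. Partek is named in the submitters' processing notes. Its version, the genome build and the steps of background correction, normalization and summarization: not given in the sources used here.

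Arrays were grouped by title (the source name of PGC-1a4 says isoform 1, and the titles were followed). limma 3.58.1 in R 4.3.3 (lmFit, eBayes) was fitted on all 15 arrays in 5 groups with 4 contrasts of PGC-1a3. The same fit also compared PGC-1a1, PGC-1a2 and PGC-1a4 each with GFP. Two-sided p-values were adjusted by Benjamini-Hochberg over the 23332 clusters of a contrast, and called means an adjusted p under 0.05. Rose and fell are used of called clusters. Permuting 3 arrays against 3 cannot give an exact p under 0.1, so the calls depend on the pooled variance. Of the clusters, 14996 carried 1 gene symbol, 1019 several and 7317 none. In 41 gene lists and 7 marker lists, 1058 of 1278 genes had a cluster with exactly 1 symbol, and a gene with several was read from its brightest cluster on average. No list test was run. The members and lists were chosen with earlier results of these data known.

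Named genes are Ppargc1a, the 14 largest rises and 14 largest falls against GFP, the 5 largest each way in each direct contrast (called, 1 symbol, groups not overlapping, uncharacterised and highly repeated loci passed over), and the 5 list members with the smallest p. Other members of a list under discussion, among them Mcm7, Mcmbp, E2f1, Mki67 and Top2a, and any marker gene named singly, were chosen after their values were seen. Alternatives changed 1 choice each: median centring, quantile normalization, a filter at percentile 25 or 50 in at least 3 arrays, leaving out clusters without exactly 1 symbol, fitting only the 2 groups compared, a robust fit with a variance trend, array weights, each array's interquartile range as a covariate, the replicate number as a block, averaging the clusters of a gene (list medians only), and omitting each array in turn. The fit was tested on simulated data.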

Additional observations from a re-analysis of the deposited data

How the results depend on the processing

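Of the 164 called genes named against GFP, 99 passed in every alternative that measured them except the fit with only the 2 groups compared, where 17 did, and 0 changed direction. Called genes have little room to change direction in such fits. The filter at percentile 50 kept 159 of them, and averaging a gene's clusters was run on list medians only. Calls in PGC-1a3 against GFP, PGC-1a2 and PGC-1a1 numbered 36, 693 and 2097 with only the 2 groups compared and 3072, 4009 and 5346 with array weights, which give GFP replicate 2 little weight. Median centring gave 1127 against GFP and 1215 against PGC-1a2. Leaving out 1 array gave 865 to 1620 against GFP, 1105 to 1902 against PGC-1a2 and 2123 to 2707 against PGC-1a1. In PGC-1a3 against PGC-1a4 every alternative stayed within 1.5 times the main count of 5365. The share of higher calls against GFP was 62.8%, 47.6% with the interquartile range covariate, 53.7% with quantile normalization and 70.5% with median centring, and that against PGC-1a1 was 53.8%, and 37.5% with median centring. The cause was not tested. Nothing in the labels pairs arrays by replicate number. Deviations from the group means correlated above 0.1 in 11 of the 30 pairs with a shared number (from -0.22 to 0.36), and 6 of 15 arrays were closest to an array of their own number, so no pairing was used. With the replicate block 1828 clusters passed against GFP (1128 higher, 700 lower) and 154 of the 164 genes. Raw scanner values were not used here, so signal over background was not measured, and Prr9 and Ifit1 lay below the lower quartile of every GFP array.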

Other observations

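Stress and chaperone genes were mostly lower in PGC-1a3 than in GFP where they passed. Of 24 measured p53 targets 4 fell (16.7%, against the 2.97% of all clusters) and 1 rose (4.17%, against 5.02%). The falls numbered 3 whichever of the 6 arrays was left out and 2 with median centring. The rise, of Plk3, a stress-responsive kinase, was lost without PGC-1a3 replicate 1 (adjusted p = 0.057) or 2 (adjusted p = 0.061). Gadd45a, a growth arrest gene, gave 8.65, 8.31 and 8.50 log2 on the GFP arrays and 7.60, 7.68 and 7.57 on the PGC-1a3 arrays, with no overlap and a difference of -0.87 ± 0.10 (3 arrays per group, ± SE, adjusted p = 0.00065). Of 26 heat shock genes 5 fell (19.2%) and 1 rose (3.85%), and the rise was lost when any 1 PGC-1a3 array or GFP replicate 3 was left out. The falls numbered 3 with median centring and 4 or 5 with 1 array left out. Those that fell include Hspb7 and Hspb3, small chaperones of muscle, at -0.45 ± 0.07 (adjusted p = 0.0029) and -0.53 ± 0.08 (adjusted p = 0.003), and Hsph1, a partner of the inducible chaperones, at -0.43 ± 0.08 (adjusted p = 0.0087). Gpx3, a secreted glutathione peroxidase, gave 8.01, 8.03 and 8.08 in GFP and 7.28, 7.41 and 7.39 in PGC-1a3, a difference of -0.68 ± 0.10 (adjusted p = 0.0021). Gpx3 was higher in PGC-1a3 than in PGC-1a2 by 0.68 ± 0.10 (adjusted p = 0.0016).

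Among 32 interferon-induced and antigen presentation genes 3 rose (9.38%, against the 5.02% of all clusters) and 0 fell (median 0.02 log2). The rises numbered 1 without PGC-1a3 replicate 1 and 2 without PGC-1a3 replicate 3 or GFP replicate 2 or 3. Rsad2, the antiviral protein viperin, gave 6.85, 6.92 and 7.16 in GFP and 7.74, 7.85 and 7.54 in PGC-1a3 and rose by 0.73 ± 0.10 (adjusted p = 0.0018). Of 34 TNF superfamily genes 4 rose (11.8%) and 1 fell (2.94%, near the 2.97% of all clusters), the fall being lost with median centring. Besides Tnfsf9 these include Tnfrsf19, a receptor of the family, with 6.92, 6.96 and 6.97 in GFP and 7.40, 7.55 and 7.44 in PGC-1a3 and a rise of 0.52 ± 0.08 (adjusted p = 0.0032). Of 18 angiogenic factors 2 fell (11.1%, against 2.97% of all clusters) and 1 rose (5.56%, near the 5.02% of all clusters). Vegfd and Vegfb, growth factors of vessels, differed by -0.55 ± 0.09 (adjusted p = 0.0035) and -0.37 ± 0.07 (adjusted p = 0.01), and Apln, the peptide hormone apelin, rose by 0.71 ± 0.14 (adjusted p = 0.0084). Nr4a1, an immediate-early nuclear receptor, rose by 0.46 ± 0.09 (adjusted p = 0.011), and Pink1, the kinase that marks damaged mitochondria, differed by -0.45 ± 0.07 (adjusted p = 0.0023). No explanation was tested for any of these values.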
